A study of Mus musculus with 6 samples.

Results

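Aquaporins are membrane channels through which water crosses cells along an osmotic gradient. They were followed here on 6 mouse arrays of samples labelled colon, of which 3 were titled PBS (called control) and 3 MBELN. The 10 genes were Aqp1 to Aqp9 and Aqp11, taken by their symbol in the platform annotation out of 19505 genes with a symbol. Each of the 10 had 1 probe set, and the values are log2 expression as deposited. All samples were from C57BL/6J mice. MBELN denotes exosome-like nanoparticles prepared from mulberry bark, given by mouth each day for 7 days in 100 µl, after which the colon was taken. The labels call the other group control mice and name PBS only in the titles. Whether the arrays stand for different mice is not stated, and p-values reflect the spread among these arrays, part of which may be technical. The array labelled control 2 stood apart from the rest, as did the tissue genes of several arrays, and arrays are therefore called by their labels.

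Most aquaporins form water-selective pores, while the aquaglyceroporins Aqp3, Aqp7 and Aqp9 also pass glycerol and other small solutes. Members differ mainly in the cells that make them. The colon takes up water from its contents across an epithelium in which Aqp8 is a well known water channel. Aqp1 is typical of blood vessels and red cells, Aqp4 of astrocytes, Aqp7 of fat and heart, and Aqp9 of liver.

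The 6 aquaporins that exceeded background were spread over 4 of the 6 arrays, and each of these 4 carried a different set. A value counted as above background where it exceeded the 95th percentile of the negative-control rows of its own array, a threshold between 7.93 on MBELN 1 and 10.11 on control 2 on the log2 scale. On control 1 these were Aqp1, Aqp4, Aqp8 and Aqp11, and on control 3 Aqp4 and Aqp11. MBELN 1 carried Aqp1 and Aqp7, and MBELN 3 carried Aqp1, Aqp8, Aqp9 and Aqp11. None exceeded background on control 2 or MBELN 2. Aqp2, Aqp3, Aqp5 and Aqp6 were above background on no array. The 6 of 10 compare with 42.8% of all probe sets above background on at least 1 array. The share of all probe sets above background was 26% for control 1, beside 4 of 10 aquaporins, and 20.7% for control 3, beside 2. It was 27.7% for MBELN 1, with 2 aquaporins, and 23.1% for MBELN 3, with 4. MBELN 2 and control 2, with 0 aquaporins each, had shares of 14.3% and 0.311%.

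**Figure D1:**
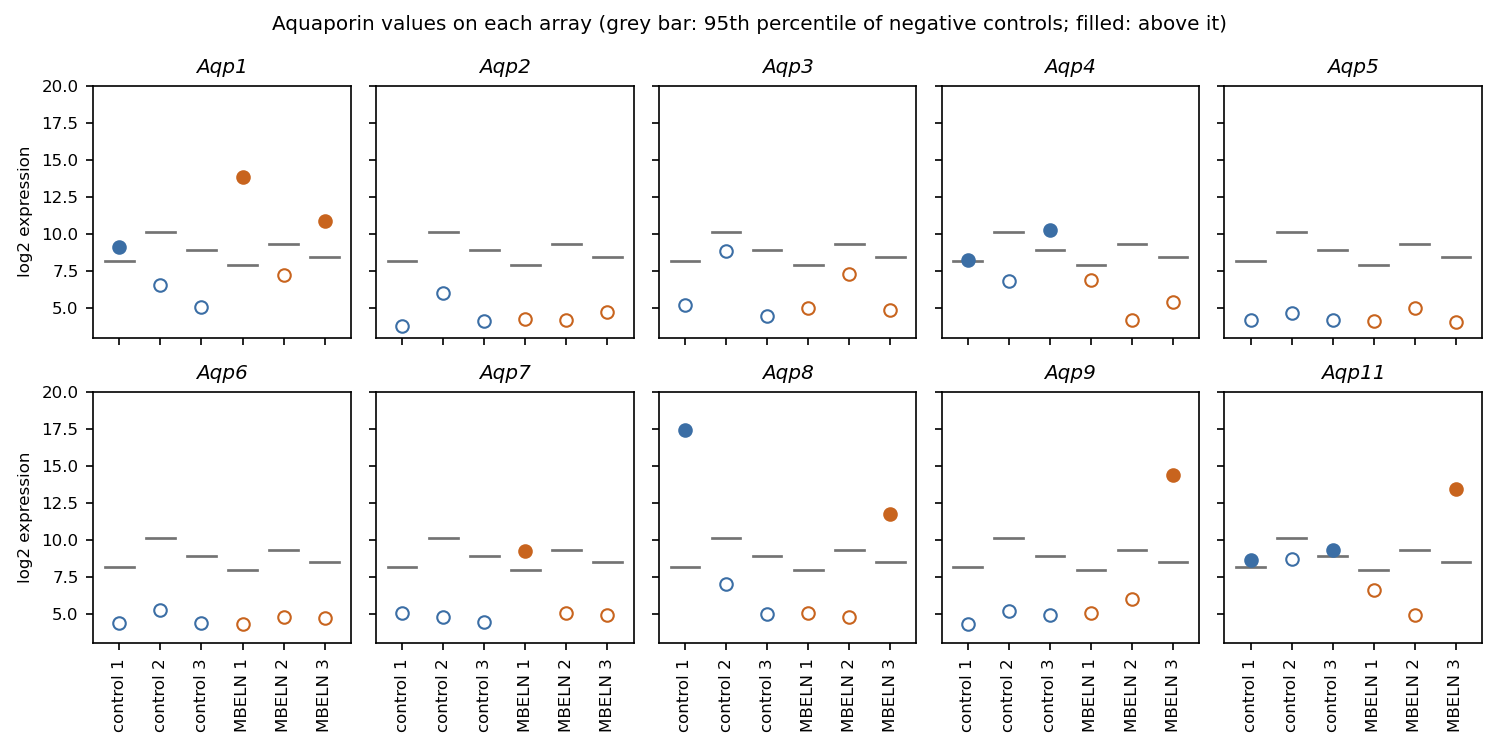
Log2 expression of the 10 aquaporins on each of the 6 arrays, blue for control and orange for MBELN, with 1 point per array. Grey bars mark the 95th percentile of the negative controls of that array, and filled points lie above it. Aqp8 reaches 17.42 on control 1 and Aqp9 reaches 14.40 on MBELN 3, while Aqp2, Aqp3, Aqp5 and Aqp6 have open points only.

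The arrays also differed in the marker genes of whole tissues, which bears on every aquaporin value below. On control 1, 13 of 15 colonocyte markers were above background, against 0 to 2 on the other 5 arrays, so the labelled tissue was seen by its markers on that array only. Control 3 had 10 of 10 neuron and 8 of 10 astrocyte markers above background, MBELN 1 had 10 of 10 cardiomyocyte and 9 of 9 endothelial markers, MBELN 2 had 10 of 10 keratinocyte and 9 of 10 skeletal muscle markers, and MBELN 3 had 10 of 10 hepatocyte markers. On control 2 none of 10 housekeeping genes was above background, against 10 of 10 on each other array. Its standard deviation over probe sets was 1.19, against 2.55 to 2.85 elsewhere. In bulk samples, fewer cells of a type and less RNA per cell cannot be told apart.

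**Figure D2:**
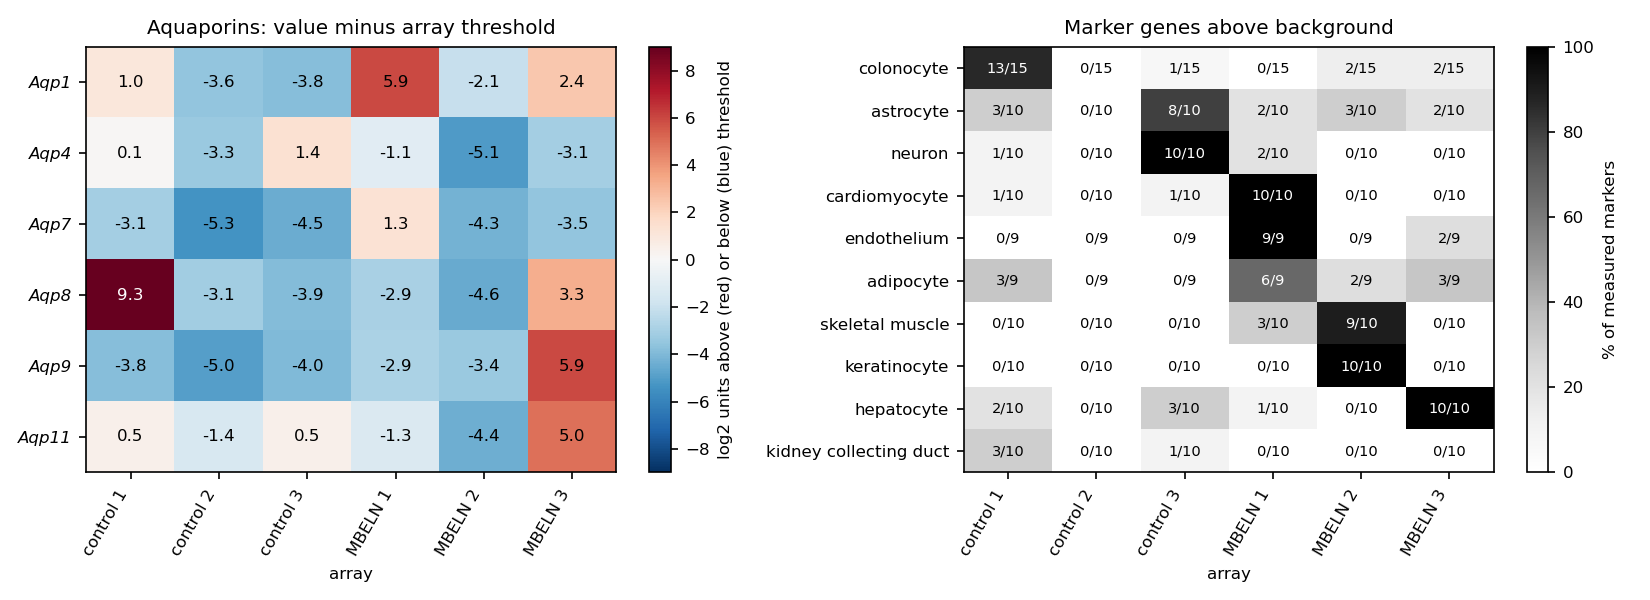
Left, the log2 distance of the 6 aquaporins above the array's background threshold (red) or below it (blue) on each array. Right, the number of measured marker genes above background for 10 cell types, with grey shading for the percentage. Aqp8 is 9.28 above threshold on control 1, the array with 13 of 15 colonocyte markers, and Aqp9 is 5.93 above it on MBELN 3, with 10 of 10 hepatocyte markers.

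The sequences upstream of Aqp1, Aqp8, Aqp9 and Aqp11 are shown because these 4 genes were above background together on MBELN 3 and differed on the other arrays. Each is the 250 bases that precede the RefSeq transcription start in GRCm38.p6, on the gene's own strand, 5′ to 3′, with the dinucleotide CG in capitals. The windows lie at chr6:55336049-55336298 (plus strand) for Aqp1, chr7:123462044-123462293 (plus strand) for Aqp8, chr9:71163290-71163539 (minus strand) for Aqp9 and chr7:97738248-97738497 (minus strand) for Aqp11. Aqp9 has a second window further down in the table, and the outer of its starts is shown.
Aqp1: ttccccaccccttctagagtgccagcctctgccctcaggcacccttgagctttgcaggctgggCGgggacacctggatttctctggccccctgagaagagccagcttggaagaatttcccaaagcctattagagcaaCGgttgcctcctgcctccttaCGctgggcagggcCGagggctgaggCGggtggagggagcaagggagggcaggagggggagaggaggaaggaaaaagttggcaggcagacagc
Aqp8: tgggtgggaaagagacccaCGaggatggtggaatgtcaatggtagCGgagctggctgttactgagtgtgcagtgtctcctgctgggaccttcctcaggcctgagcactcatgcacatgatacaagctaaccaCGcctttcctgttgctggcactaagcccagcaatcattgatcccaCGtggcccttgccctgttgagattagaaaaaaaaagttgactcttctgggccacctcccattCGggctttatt
Aqp9: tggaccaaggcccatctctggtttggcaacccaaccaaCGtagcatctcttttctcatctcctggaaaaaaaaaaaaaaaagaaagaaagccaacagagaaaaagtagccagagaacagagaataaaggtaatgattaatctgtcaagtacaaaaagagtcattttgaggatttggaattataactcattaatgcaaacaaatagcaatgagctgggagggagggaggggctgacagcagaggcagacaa
Aqp11: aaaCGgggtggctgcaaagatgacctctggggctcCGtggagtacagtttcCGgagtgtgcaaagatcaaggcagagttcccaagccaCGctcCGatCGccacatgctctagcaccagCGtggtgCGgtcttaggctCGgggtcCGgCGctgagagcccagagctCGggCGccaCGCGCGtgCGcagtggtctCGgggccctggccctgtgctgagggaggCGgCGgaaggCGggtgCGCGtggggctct

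The 4 windows differed in CG content. That of Aqp11 held 23 CG dinucleotides and 67.2% G or C, Aqp1 held 5 at 62%, Aqp8 held 5 at 52.4% and Aqp9 held 1 at 40.4%. The median over all 32851 windows used was 6 CG dinucleotides and 52.4% G or C. A CG-rich window did not go with a value above background for every member, since Aqp5, with 38 CG dinucleotides, was above background on no array. Windows were found for 9 of the 10 genes. Windows on chromosome 18, where Aqp4 lies, were not used, neither for the members nor for the shares over all windows. In each window 8 short motifs were searched on both strands. GGGCGG, the GC box, was in the Aqp1 window 190 bases before the start and in 32.7% of all windows. AGGTCA, the core unit of many nuclear receptor sites, was in the Aqp11 window on the opposite strand 230 bases before the start and in 14.0% of all windows. The windows shown for Aqp8 and Aqp9 held none of the 8. Of the other motifs, TATAAA of the TATA box was in 12.4% of all windows, CCAAT of the box with that name in 33.8% and GTTAAT of the HNF1 site in 6.43%. TTGCNNCAA of the C/EBP factors was in 1.74%, TTTATG of the CDX factors in 10.8% and AGATAA of the GATA factors in 9.99%. Among members' windows not shown, GGGCGG was also in those of Aqp3 and Aqp5, and AGGTCA in both windows of Aqp7. TATAAA was in the Aqp3 window, AGATAA in the Aqp2 window and a window of Aqp7, and TTTATG in the second Aqp9 window. No motif overlapped another in the 4 windows, and a match or its lack is a description of these letters only.

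Aqp8, which lets water and hydrogen peroxide through membranes of colonocytes and hepatocytes, had the widest range of the 10 genes over the arrays, 12.64 log2 units. The controls 1, 2 and 3 were at 17.42, 6.99 and 4.98, and MBELN 1, 2 and 3 at 5.04, 4.78 and 11.77. Control 1 alone was high among the controls and MBELN 3 alone among the MBELN arrays, and the groups overlapped. Between these arrays the difference was 5.65 log2 units, or 50.1-fold, with no replicate of either. The 4 remaining arrays lay 2.89 to 4.56 log2 units below their thresholds. The controls averaged 9.80 ± 6.68 (SD, n = 3) and the MBELN arrays 7.20 ± 3.96 (n = 3), a fitted log2 difference of -2.60 (SE 3.71, 95% interval -11.72 to 6.53), with an adjusted p of 0.936 by limma. Without control 1 the difference was 1.21, so its direction rested on that array.

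Aqp1, the water channel of endothelium and red cells, was above background on 3 arrays. Its values were 9.13, 6.55 and 5.07 on control 1, 2 and 3, and 13.88, 7.24 and 10.87 on MBELN 1, 2 and 3. The highest, MBELN 1, lay 8.04-fold over MBELN 3, and control 1 was 0.99 log2 units above its threshold. MBELN 2 lay between control 2 and control 1, so the groups overlapped. Endothelial markers had a median of 10.30 on MBELN 1, with 9 of 9 above background, and of 6.46 on MBELN 3, with 2 of 9. MBELN 2 was at 5.79 and the controls at 5.62 to 6.94, with none of the 9 above background. Aqp1 was thus above background on control 1 without any of these markers. Of the erythroid markers only Alas2, the first haem synthesis enzyme of red cell precursors, was above background, at 8.63 on MBELN 1 and 9.29 on MBELN 3. The part of vessels or red cells in the Aqp1 values was not tested. The MBELN arrays averaged 10.66 ± 3.33 (SD, n = 3) and the controls 6.92 ± 2.05 (n = 3), a log2 difference of 3.74 (SE 1.90, 95% interval -0.93 to 8.41), with an unadjusted p of 0.0973 and an adjusted p of 0.936 by limma. Without MBELN 1 the difference was 2.14 (unadjusted p = 0.261 by limma) and without MBELN 2 it was 5.46 (unadjusted p = 0.0196, adjusted p = 0.962).

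Aqp4, the water channel of astrocyte end-feet, was the member with the smallest unadjusted p. Its values were 8.25, 6.80 and 10.29 on control 1, 2 and 3, and 6.88, 4.22 and 5.39 on MBELN 1, 2 and 3. Control 3 was highest, 1.40 log2 units above its threshold, and control 1 was 0.11 above its own. MBELN 1 lay above control 2, so the groups overlapped, and all 3 MBELN arrays and control 2 were below background. Controls averaged 8.45 ± 1.75 (SD, n = 3) and MBELN arrays 5.50 ± 1.33 (n = 3). The fitted log2 difference was -2.95 (SE 1.12, 95% interval -5.71 to -0.19), with an unadjusted p of 0.0397 and an adjusted p of 0.936 by limma, and so did not pass. Since no MBELN array measured Aqp4 above background and the control mean lay 0.13 log2 units under the mean of the MBELN thresholds, no fold is given. Without control 3 the difference was -2.03, with an unadjusted p of 0.101.

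Brain markers stood beside the Aqp4 values. The astrocyte list had its highest median on control 3, 10.31, against 5.17 to 7.65 on the other arrays. Slc1a2, the main astrocyte glutamate transporter, was at 19.37 there and at 12.68 on MBELN 3, where Aqp4 was at 5.39, and Gfap, the astrocyte intermediate filament, was at 9.46 on control 3. On control 1 neither exceeded background, at 3.97 and 5.03, while Aqp4 was 0.11 above threshold. Of the 10 astrocyte markers 3 others did exceed it there, Aldh1l1 at 9.54, Sox9 at 8.98 and Gja1 at 8.62. Control 3 had 8 of the 10 above background and the MBELN arrays 2 to 3 each. Aldh1l1 was highest on MBELN 3, at 16.73, and Gja1 on MBELN 2, at 16.64. Aqp4 is also known from the surface of fast skeletal muscle fibres, and it stood at 4.22 on MBELN 2, where 9 of 10 skeletal muscle markers were above background.

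Aqp2, Aqp5 and Aqp6, the remaining water channels, lie side by side on chromosome 15 with no protein-coding gene between them in the RefSeq table. Aqp2, the vasopressin-regulated channel of the kidney collecting duct, ranged from 3.81 on control 1 to 5.98 on control 2. For Aqp5, a channel of salivary, tear and lung epithelium, the range was 4.08 on MBELN 3 to 5.01 on MBELN 2. Aqp6, an intracellular channel of kidney cells, lay between 4.34 on MBELN 1 and 5.28 on control 2. All of these values were below background, by 3.60 to 5.43 log2 units. The highest value of Aqp2, on control 2, was 1.26 log2 units over the next array. For Aqp5 (MBELN 2) and Aqp6 (control 2) that gap was 0.33 and 0.52. Markers of collecting duct and other distal kidney segments had medians of 4.36 to 5.17 on the 6 arrays. Of these 10, Scnn1b, Scnn1g and Hsd11b2, which also act in colon epithelium, were above background on control 1, at 9.18, 9.45 and 11.09, and Calb1, also a neuronal calcium-binding protein, on control 3 at 9.76.

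Among the aquaglyceroporins, Aqp9, which takes glycerol into hepatocytes, was confined to a single array at this threshold. It was at 14.40 on MBELN 3, against 5.06 on MBELN 1, 5.98 on MBELN 2 and 4.30, 5.15 and 4.89 on control 1, 2 and 3. MBELN 3 was thus at least 19.6-fold over each other array, taking for each of them the higher of its value and its threshold. The control values overlapped those of MBELN 1. Hepatocyte markers had a median of 19.50 on MBELN 3 and 4.89 to 7.19 elsewhere. Neutrophils also make Aqp9 in some species, and 0 of 7 neutrophil markers was above background on any array. Averages were 8.48 ± 5.14 (SD, n = 3) for MBELN and 4.78 ± 0.44 (n = 3) for the controls, a log2 difference of 3.70 (SE 2.49, 95% interval -2.41 to 9.81, limma adjusted p = 0.936). It was 0.74 without MBELN 3.

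Aqp7, through which fat cells release glycerol and heart muscle takes it up, was above background on MBELN 1 alone. It was at 9.27 there, 1.34 log2 units above threshold, and at 5.05 and 4.93 on MBELN 2 and 3. The controls were at 5.05, 4.76 and 4.43. MBELN 3 lay below control 1, so the groups overlapped apart from the single high array. The log2 difference of the means, 6.42 ± 2.47 (SD, n = 3) for MBELN and 4.75 ± 0.31 (n = 3) for the controls, was 1.67 (SE 1.25, 95% interval -1.40 to 4.74, limma adjusted p = 0.936), and 0.25 without MBELN 1. On MBELN 1, 10 of 10 cardiomyocyte and 6 of 9 adipocyte markers were above background. The adipocyte hormone Adipoq was at 8.64 there and at 10.27 on control 1, where Aqp7 was at 5.05. Control 1 and MBELN 3 each had 3 of the 9 adipocyte markers above background and MBELN 2 had 2. The markers Plin1, Lep and Retn were above background on no array.

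Aqp3, the glycerol and water channel of basal epidermis and of colon epithelium, was above background nowhere. It was at 5.20, 8.84 and 4.49 on control 1, 2 and 3, and at 4.97, 7.32 and 4.84 on MBELN 1, 2 and 3. The highest value was on control 2, under that array's threshold by 1.27, and the next on MBELN 2, under by 2.02. On MBELN 2 the basal keratins Krt5 and Krt14 stood at 19.69 and 19.68, and on control 1 the colonocyte gene Slc26a3, a chloride and bicarbonate exchanger, at 18.47. Aqp3 was therefore not detected on either array that carried the epithelial markers of its known sites. Its neighbour in the RefSeq gene order on chromosome 4 is Aqp7, which showed a different array pattern. The log2 difference was -0.46 (SE 1.36, 95% interval -3.80 to 2.87, limma adjusted p = 0.957), and it was 0.87 without control 2.

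Aqp11, an intracellular aquaporin of the endoplasmic reticulum, was above background on as many arrays as Aqp1. It was at 8.61, 8.67 and 9.34 on control 1, 2 and 3, and at 6.63, 4.92 and 13.46 on MBELN 1, 2 and 3. The controls lay within 0.73 of each other, although control 2 was 1.44 below its threshold and the others only 0.47 and 0.45 above theirs. The MBELN arrays lay on both sides of all controls. MBELN 3, the array of the hepatocyte markers, was 4.12 log2 units over control 3, the next array. The log2 difference was -0.54 (SE 2.19, 95% interval -5.93 to 4.85, limma adjusted p = 0.967), from averages of 8.34 ± 4.52 (SD, n = 3) for MBELN and 8.87 ± 0.41 (n = 3) for the controls. Without MBELN 3 it was -3.10, with an unadjusted p of 0.00999 and an adjusted p of 0.999 by limma. Without MBELN 2 it was 1.17.

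In the comparison of MBELN with control arrays, 0 of the 10 aquaporins passed an adjusted p of 0.05 in limma's fit over 22206 probe sets, against 0% of all probe sets. At an unadjusted p under 0.05 with a difference of at least 1.5-fold there was 1 member, Aqp4, beside 1.9% (422) of all probe sets, and which members were under 0.05 changed with the arrays included, as the values for Aqp1, Aqp4 and Aqp11 show. None of the 10 had groups that did not overlap, where 6.83% of all probe sets did. The fitted difference was above 0 for 4 members and below it for 6, with a median of -0.18, against -0.01 over all probe sets. Because the arrays of a group carried different tissue markers, treatment and tissue content cannot be told apart in these values. The intervals were wide, with 9 of the 10 including 0, and they do not show that the groups were alike.

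**Figure D3:**
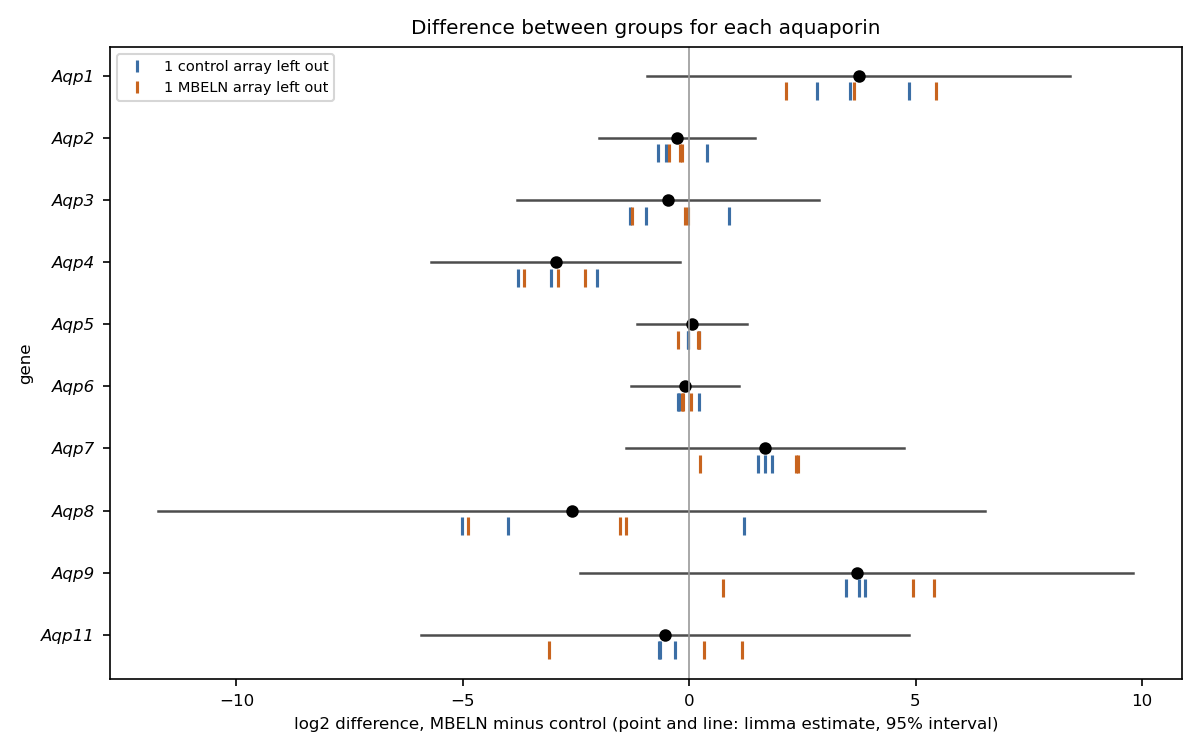
Log2 difference of each aquaporin, MBELN minus control, as limma's estimate (black point) with its 95% interval (line). Ticks below each line give the difference after leaving out 1 control array (blue) or 1 MBELN array (orange). The Aqp8 ticks run from -5.01 to 1.21, the upper end being the fit without control 1, and the Aqp4 ticks from -3.77 to -2.03.

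A few values near the threshold decide the counts on single arrays. The 4 lowest above it were Aqp4 on control 1, by 0.11, Aqp11 on control 3 and control 1, by 0.45 and 0.47, and Aqp1 on control 1, by 0.99. Aqp1, Aqp4 and Aqp11 were each further above background on another array. Those nearest below were Aqp4 on MBELN 1, by 1.05, and Aqp3 on control 2, by 1.27. At the 99th percentile of the negative controls, 4 of the 10 genes were above background on at least 1 array, namely Aqp1 on MBELN 1, Aqp8 on control 1 and Aqp9 and Aqp11 on MBELN 3.

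Other genes with like patterns over the 6 arrays were ranked by Pearson's r of log2 values, among 8524 genes above background on at least 1 array. These 6 points share whatever sets an array apart, and a gene that is high on a single array resembles many others. For Aqp9 there were 303 genes with r over 0.95, led by Prodh2 (r = 0.997), Apoa5 (0.997) and Gckr (0.996). Apoa5 is a liver apolipoprotein and Gckr the regulator of glucokinase. For Aqp7 there were 110, led by Mlf1 (0.999), Itgbl1 (0.998) and Rrad (0.995).

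Aqp1 had 54 genes over that mark, led by Bgn (0.988), a matrix proteoglycan, Lilr4b (0.985) and Stk10 (0.985). Aqp8 had 37, led by Grtp1 (0.999), Cdhr5 (0.997), a cadherin of the brush border, and Slc46a1 (0.995), the intestinal folate transporter. Cdhr5, picked by its correlation with Aqp8 over these same arrays, was at 16.73 on control 1, 10.82 on MBELN 3 and 4.82 to 6.56 elsewhere. Fewest were found for Aqp4, with 7, led by Ica1 (0.995), Ift22 (0.964) and Zdhhc14 (0.964), and for Aqp11, with 2. The genes nearest to Aqp11 were Retreg2 (0.972), Pcyt2 (0.960), which makes a precursor of phosphatidylethanolamine, and Ttr (0.945), the thyroid hormone carrier.

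The other family members with a probe set, Mip of the eye lens and Aqp12 of the pancreas, were above background on no array. Mip lay between 4.21 and 6.44, and Aqp12 between 4.15 and 6.59, each highest on control 2.

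Genes that work with aquaporins were followed in 5 lists, none of whose members passed the adjusted test in either direction. Glycerol handling genes, which supply or use the solute of Aqp7 and Aqp9, had 10 of 14 members above background on MBELN 3, while MBELN 1 had 7 and MBELN 2 had 4. The controls had 6, 1 and 3 in the order of their numbers. Differences were above 0 for 12 of 14, with a median of 2.35, against 11014 of 22206 over all probe sets, with a median of -0.01. The housekeeping genes, all below background on control 2, were above 0 for 10 of 10, with a median of 3.98, and the part of control 2 in the differences of these lists was not tested. The widest ranges were those of the gluconeogenic enzymes Fbp1, Pck1 and G6pc, at 18.79, 19.11 and 16.32 on MBELN 3, the array on which Aqp9 was high. Fbp1 and G6pc were below background on the other 5 arrays, while Pck1 was also above it on control 1, at 9.23.

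Genes of the dystrophin complex, which anchors Aqp4 in the membrane, did not follow the Aqp4 pattern in number. Of 11 measured, 9 were above background on MBELN 1, where Aqp4 was not. Control 3 and MBELN 2 had 5 each, control 1 and MBELN 3 had 4 each, and control 2 had 0. Dtna, encoding dystrobrevin alpha, was highest on control 3 at 15.85, with 12.45 on MBELN 1, 10.40 on control 1 and 5.08 to 7.04 on the rest. Dag1, encoding dystroglycan, was at 10.74 to 13.01 on every array but control 2, where it was at 5.20. Sgcb, a sarcoglycan of muscle, was at 12.94 on MBELN 1 and 10.11 on control 3, and below background elsewhere. Of these differences 8 of 11 were above 0, with a median of 0.48.

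The vasopressin and cAMP route, which moves Aqp2 to the cell surface in kidney, had 7 of 13 members above background on control 1 as well as MBELN 1. Control 3 and MBELN 3 each had 5, MBELN 2 had 3 and control 2 had 0. The receptor gene Avpr2 was at 4.67 to 5.16 and above background on none. Its widest ranges were those of the G protein subunit Gnas, the kinase subunit Prkacb and the anchoring protein Akap7, highest at 16.87, 14.83 and 12.26. Differences were above 0 for 5 of 13, with a median of -0.16. Genes for vesicle delivery of water channels had 10 of 11 above background on control 1 and 6 on MBELN 1. Control 3, MBELN 2 and MBELN 3 had 5 each and control 2 had 0. Among them Ezr, the microvillus protein ezrin, was at 16.50 on control 1, Myo5c, an epithelial myosin, at 12.83 on control 1 only, and the synaptic Vamp2 at 16.53 on control 3. Here 6 of 11 differences were above 0, with a median of 0.59.

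The list for the response to osmotic stress had 5 to 7 of 10 above background on each array but control 2, which had 0. Slc38a2, an amino acid transporter that rises in hypertonic cells, was at 17.03 on MBELN 2 and 16.13 on MBELN 3, at 12.54 to 14.03 on MBELN 1, control 1 and control 3, and at 5.72 on control 2. The kinase gene Wnk1 was at 12.42 to 14.32 on those 5 arrays and the taurine transporter gene Slc6a6 at 8.64 to 13.97. Their log2 differences were 4.41 (SE 2.44), 3.11 (SE 2.29) and 2.71 (SE 1.63), each with an adjusted p of 0.936 by limma. In this list 8 of 10 differences were above 0, with a median of 0.75. All 3 genes were lowest on control 2.

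**Figure D4:**
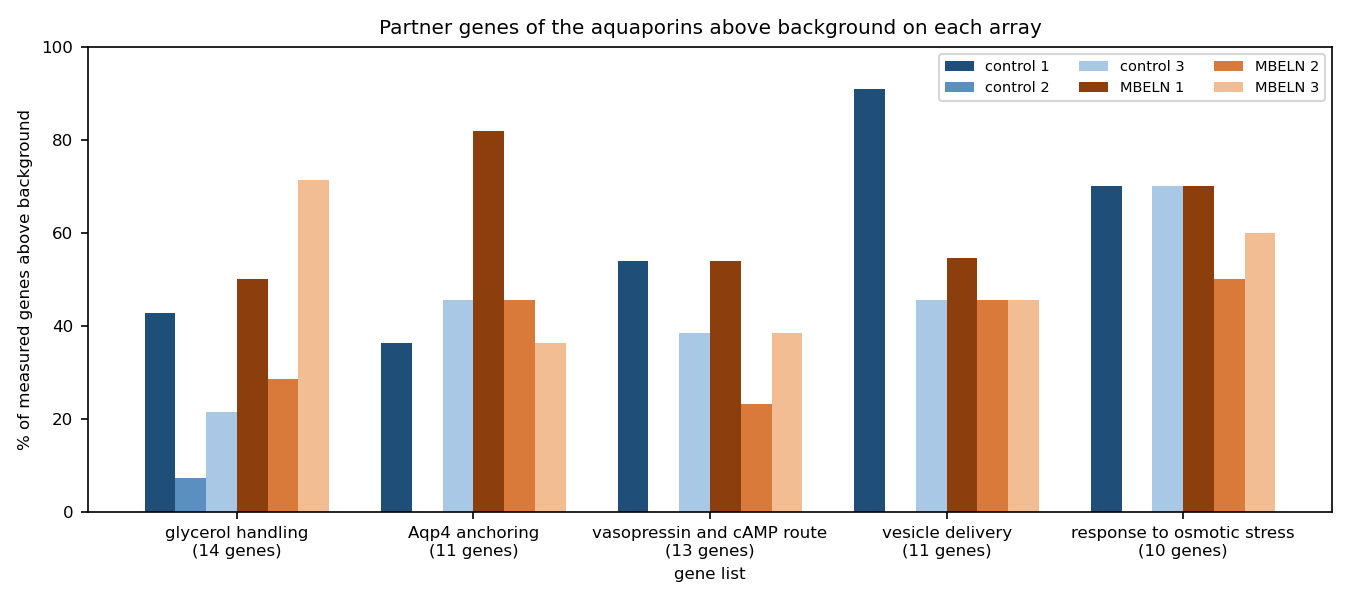
Percentage of measured genes above background on each array for 5 lists of genes that work with aquaporins, with the number of measured genes under each list and bars in blue for control and orange for MBELN arrays. Control 2 has a bar only for glycerol handling, 1 of 14 genes, and MBELN 3 has the tallest bar there, 10 of 14.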

How the data were processed

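The deposited table holds log2 expression per probe set on 6 arrays, between 3.38 and 19.93, a range from which the log base was inferred. Transcriptome Analysis Console 4.0 is named in the submitters' processing notes, while for summarisation, normalisation and genome build the sources used here give nothing. Input was 90 ng of RNA per array, per the labels. Of 28846 rows, 6640 control rows were left out of tests, and their 5222 negative controls set each array's background threshold. Symbols came from the platform annotation (19572 of 22206 probe sets had 1, 0 had several).

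Groups were compared with limma 3.58.1 in R 4.3.3 (lmFit and eBayes, 2-sided, Benjamini-Hochberg over all 22206 probe sets), checked on simulated data. No p was adjusted over the list alone. Fold values are powers of the deposited log2 differences. The number of arrays limits the precision. Python 3.11.15 was used otherwise.

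The members, lists and threshold were chosen with earlier results of these data known. The genes named were the 10 aquaporins, up to 3 genes per list with the widest range among those above background on an array, and the 3 genes most correlated with each detected aquaporin. Marker genes named to describe arrays were picked once their values were known. Alternatives were a dim-probe filter, quantile normalisation, equal medians, a trend with a robust prior, array weights, a replicate block, other percentiles, the mean of probe sets and leaving out each array.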

Additional observations from a re-analysis of the deposited data

How the results depend on the processing

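No aquaporin passed under any alternative (127 refitted values, lowest adjusted p 0.787), and the count over all probe sets was 0 in each. Of these values 111 kept their direction and 16 turned. The dim filter, the trend with a robust prior, the replicate block and the mean of probe sets left each fitted difference as it was. Their values among the 111 therefore could not have turned. With array weights Aqp2 stood at 0.35, Aqp3 at 0.16, Aqp6 at 0.11 and Aqp11 at 0.13, and Aqp6 was at 0.028 with quantile normalisation and 0.031 with equal medians. Leaving out each array gave -0.69 to 0.40 for Aqp2, -1.31 to 0.87 for Aqp3, -0.25 to 0.22 for Aqp5, -0.24 to 0.21 for Aqp6, -5.01 to 1.21 for Aqp8 and -3.10 to 1.17 for Aqp11. The sign of Aqp2, Aqp3 and Aqp6 turned without control 2, that of Aqp8 without control 1, that of Aqp11 without MBELN 1 or MBELN 2, that of Aqp6 also without MBELN 1, and that of Aqp5 without control 1, control 3 or MBELN 2. Aqp1, Aqp4, Aqp7 and Aqp9 kept their sign. For Aqp4 the unadjusted p ran from 0.0214 to 0.121, and exceeded 0.05 with equal medians (0.0535) and without control 1 (0.0768), control 3 (0.101), MBELN 2 (0.121) or MBELN 3 (0.0905). For Aqp1 it ran from 0.0196 without MBELN 2 to 0.261 without MBELN 1, and for Aqp11 from 0.00999 without MBELN 3 to 0.962 with array weights. The cause of the other changes was not tested.

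The number of aquaporins above background on at least 1 array was 6 at the 90th percentile and 4 at the 99th, and 5 to 6 when an array was left out, 5 without MBELN 1 or MBELN 3. At the 99th percentile the counts by array were 1 on control 1, 0 on control 3, 1 on MBELN 1 and 2 on MBELN 3. No share of all probe sets was counted at the 90th or 99th percentile or with an array left out, so these counts are descriptions only. Counts on single arrays use that array's own threshold and do not change when another is left out. Each member has 1 probe set, so averaging probe sets changed no value. The dim filter removed Aqp2, Aqp5 and Aqp6, which have no value there. The deviations of same-numbered arrays of the groups had correlations of 0.11, 0.12 and -0.05, against -0.18 to 0.10 for differently numbered arrays. The values 0.11 and 0.12 were above that range and -0.05 was within it. These correlations do not decide whether the numbers are pairs, and the main fit did not take them as pairs. With the replicate block 0 aquaporins and 0 probe sets passed, and Aqp4 kept a difference of -2.95 (unadjusted p = 0.0303). With the same block Aqp1 kept its difference of 3.74, with an unadjusted p of 0.0386 by limma, against 0.0973 without it.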
